A study of Mus musculus with 2 samples.

Results

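The members described here are 35 genes of sugar metabolism, chosen by symbol from the gene list of a mouse kidney single-cell RNA data set that holds 31053 genes. They were sorted by role into 20 genes of glycolysis, 6 genes of gluconeogenesis and 9 genes that handle lactate, pyruvate or fructose. All 35 symbols were found, in 36 rows, because Aldoa is listed under 2 identifiers. The further Aldoa row held 0 UMIs (unique molecular identifiers, each standing for 1 captured RNA molecule) in the cells kept and was not used. The rule used symbols and no measured value, though the list was drawn up with earlier results of these data known.

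The study sequenced dissociated kidney cortex from 16-week-old mice, with 1 library labelled wild type and 1 labelled PT I-PpoI. Whether each came from 1 animal or from a pool is not stated in the sources used here. In the second group, the homing endonuclease I-PpoI, an enzyme that cuts DNA at a rare site and so makes double-strand breaks, was expressed in proximal tubular epithelial cells only, per the study's title. The labels used here name no promoter, and the transgene is not among the listed genes, so its expression could not be checked. With 1 library per group there is no replicate check: no test between the groups was possible, and every interval below is a 95% interval that covers counting error only.

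Glycolysis breaks glucose down to pyruvate, and gluconeogenesis rebuilds glucose from lactate, glutamine and other precursors. The pathways share their reversible enzymes, whereas hexokinase, phosphofructokinase and pyruvate kinase drive glycolysis forward, and pyruvate carboxylase (Pcx), phosphoenolpyruvate carboxykinase (Pck1, Pck2), fructose-1,6-bisphosphatase (Fbp1) and glucose-6-phosphatase (G6pc) bypass those steps. In the kidney, gluconeogenesis belongs to the proximal tubule, which runs mainly on fatty acids, while the distal segments depend more on glycolysis.

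The libraries differed in make-up and depth. After removal of empty droplets, damaged cells and doublets, 5118 PT I-PpoI and 11953 wild-type cells remained, with medians of 11078.5 and 2687 UMIs per cell. They shared 22 cell barcodes. Clusters were named from marker genes and are called, for example, PT-like (proximal tubule). PT-like cells were 167 of the PT I-PpoI cells (3.26%) and 5910 of the wild-type cells (49.4%), and all 14 PT markers were detected in both. A loss of these cells in the animal and a loss during dissociation cannot be told apart. Levels are given as UMIs per 1000000 UMIs of all cells of a class (CPM), and a log2 ratio is PT I-PpoI over wild type unless another order is stated. The UMIs are counted near the 3′ end and not divided by gene length. Levels are compared mainly between cell classes. Shares and sums over several genes are counts of UMIs and take each gene to be captured alike, which was not tested. RNA released from broken cells adds UMIs to every droplet. This free RNA was estimated at 5.62% and 14.0% of the UMIs of PT-like cells, in the PT I-PpoI and the wild-type library, and its composition also differed: it held 28.5 and 341 CPM of Pck1, but 583 and 104 CPM of Pkm.

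In both libraries the gluconeogenic genes had their highest levels in PT-like cells, apart from Pck2 and, in the wild-type library, Slc37a4. Pck1, the cytosolic enzyme that commits oxaloacetate to glucose synthesis, stood at 538 CPM in PT-like cells of the PT I-PpoI library and at 929 CPM in the wild type. The next highest classes were parietal-like cells of the glomerular capsule in the PT I-PpoI library (46.3 CPM) and mural-like vessel cells in the wild type (182 CPM, where free RNA alone would give 192 CPM). Over the 6 gluconeogenesis genes, the median log2 ratio of PT-like over TAL-like cells (thick ascending limb) was 3.60 in the wild type and 4.96 in PT I-PpoI, and 5.15 and 5.19 once free RNA was subtracted. PT markers set the free share of TAL-like cells, so the subtraction lowers PT genes there by design. Pck2, the mitochondrial form of the enzyme, had the reverse distribution. Its level was lowest in PT-like cells, at 2.94 and 3.21 CPM, and highest in mural-like cells, at 54.0 and 43.5 CPM. Slc37a4, which carries glucose-6-phosphate into the endoplasmic reticulum, was at 88.8 and 88.0 CPM in PT-like cells and at 82.8 and 89.7 CPM in parietal-like cells.

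Glycolytic genes did not share a single pattern along the nephron, and the split followed the kind of step. The 8 genes of the irreversible steps (3 hexokinases, 3 phosphofructokinases and 2 pyruvate kinases) summed to 92.2 CPM in the PT-like cells of the PT I-PpoI library and 49.0 CPM in those of the wild type. The same sum was 1000 and 898 CPM in TAL-like cells, 1661 and 1006 CPM in DCT-like cells (distal convoluted tubule), 983 and 848 CPM in PC-like cells (principal cells of the collecting duct) and 897 and 867 CPM in IC-like cells (intercalated cells). The 9 genes of the reversible steps differed far less, at 3195 and 2696 CPM in PT-like and 2811 and 2825 CPM in TAL-like cells. PT-like cells thus held the reversible enzymes at levels near those of the thick ascending limb, with the lowest sum for the irreversible steps of the 11 classes compared.

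Hk1, the main hexokinase of the distal nephron, was at 6.38 and 3.03 CPM in PT-like cells and at 209 and 188 CPM in TAL-like cells. Pkm, the widespread pyruvate kinase, was at 28.9 and 10.4 CPM in PT-like and 541 and 472 CPM in TAL-like cells, with its highest level in DCT-like cells (1174 and 695 CPM). Pfkp, the platelet-type phosphofructokinase, was at 18.6 and 6.01 CPM in PT-like and 119 and 123 CPM in TAL-like cells. Together with Pfkfb3, Pdk1 and Pck2, these genes had their lowest level of all classes of 50 or more cells in the PT-like cells of both libraries. Gapdh, which oxidises glyceraldehyde-3-phosphate and also serves glucose synthesis, was the opposite case and peaked in PT-like cells at 1375 and 1152 CPM. Over the 17 glycolysis genes with at least 10 UMIs in the wild type, the median log2 ratio of TAL-like over PT-like cells was 1.13, beside 0.15 over all genes. Of these, 9 were at least 2-fold higher, where 19.0% of all genes were. In PT I-PpoI the median was 0.41, beside -0.02 over all genes, and 6 of 17 were at least 2-fold higher, where 18.2% of all genes were. The heat map of levels by class shows both arrangements at once.

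**Figure D1:**
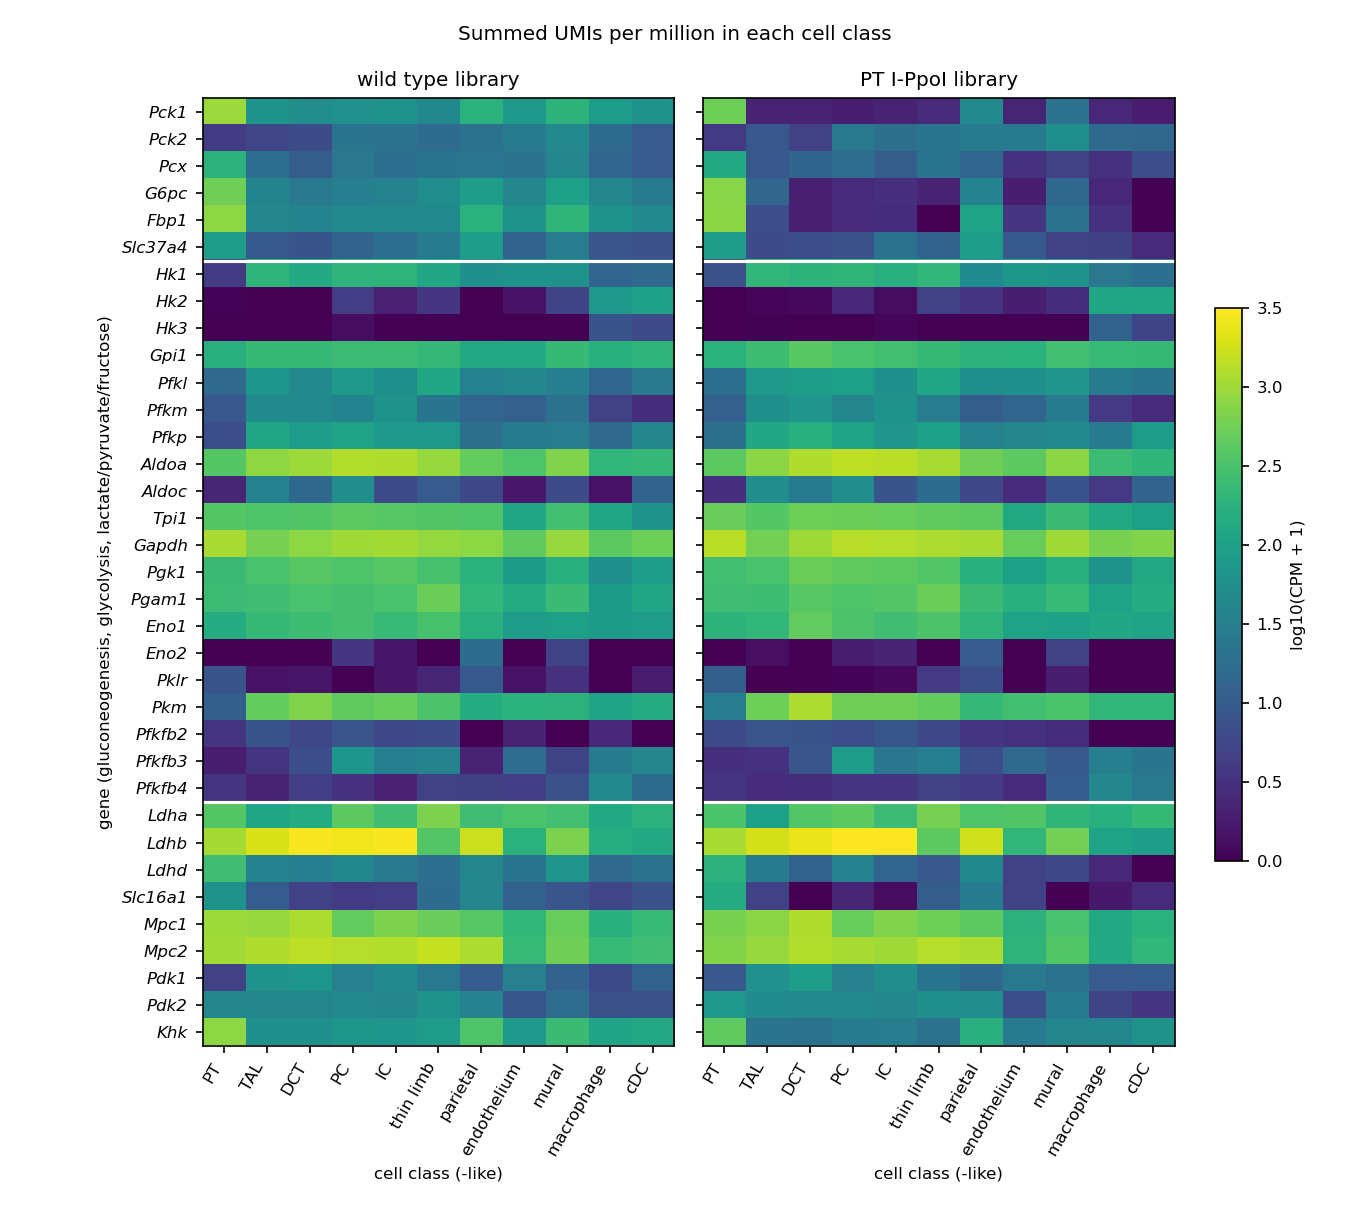
Level of each member, as log10 of CPM + 1 (colour), in 11 cell classes (columns) of the PT I-PpoI and the wild-type library, with rows grouped as gluconeogenesis, glycolysis and lactate, pyruvate and fructose genes. Pck1, G6pc and Fbp1 are brightest in the PT-like columns, where Hk1, Pfkp and Pkm are darkest; the wild-type columns outside the PT carry a faint Pck1, G6pc and Fbp1 signal that the PT I-PpoI columns mostly lack.

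The isozyme shares of UMIs differed by class, and most were alike in the 2 libraries before free RNA was taken into account. No free RNA was subtracted from these shares. It held 2350 and 766 CPM of Ldhb, beside 244 and 211 CPM of Ldha. It was 3.95% and 18.8% of the UMIs of endothelium-like cells and 1.69% and 14.8% of those of thin limb-like cells. Its part in the shares was not tested. Of the UMIs of Ldha and Ldhb, the lactate dehydrogenase subunits, Ldhb gave 95.1% and 94.2% in TAL-like cells, 78.0% and 73.6% in PT-like cells, but 35.7% and 34.9% in endothelium-like cells and 41.9% and 35.8% in thin limb-like cells. Ldhb thus led in the TAL-like and PT-like cells, and Ldha in the endothelium-like and thin limb-like cells. Of the hexokinase UMIs, Hk1 gave 99.9% and 100% in TAL-like cells, but 14.9% (10.5% to 20.3%) and 13.9% (9.29% to 19.7%) in macrophage-like cells, where Hk2 gave 77.8% and 78.6%. Pfkfb3, a kinase that makes the phosphofructokinase activator fructose-2,6-bisphosphate, gave 90.9% and 87.9% of the Pfkfb2 to Pfkfb4 UMIs in PC-like cells and 19.4% and 22.2% in TAL-like cells, where Pfkfb2 gave 64.8% and 66.7%. Pklr, the liver-type pyruvate kinase, was detected mainly in PT-like and parietal-like cells: it stood at 10.3 and 6.85 CPM in the former and at 5.79 and 8.26 CPM in the latter. Intervals on shares are exact Clopper-Pearson intervals.

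Other members had their peaks outside the tubule or in small classes. Hk2 was highest in macrophage-like cells of PT I-PpoI (122 CPM) and in cDC-like cells (conventional dendritic cells) of the wild type (98.6 CPM). Hk3 was nearly restricted to the same classes, at 11.3 and 6.85 CPM in macrophage-like cells, and Pfkfb4 peaked there at 41.1 and 43.1 CPM. Eno2, the neuronal enolase, was highest in parietal-like cells at 9.26 and 16.5 CPM, from 16 and 14 UMIs. Thin limb-like cells were highest in both libraries for Pgam1 (517 and 522 CPM), Pfkl (115 and 125 CPM), Ldha (599 and 651 CPM) and the mitochondrial pyruvate carrier subunit Mpc2 (1300 and 1579 CPM). PC-like cells were highest for Aldoa (1451 and 1248 CPM), Aldoc (51.2 and 53.4 CPM) and Pfkfb3 (82.3 and 68.3 CPM). DCT-like cells were highest for Mpc1 (1223 and 1169 CPM) and for Pdk1 (90.7 and 67.1 CPM), a kinase that switches pyruvate dehydrogenase off. The PC-like class is broad, since 1 of its clusters was also led by S100g, a marker of the connecting tubule.

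Within the wild-type PT-like cells, the members varied along the order of the segments. The 7 PT-like clusters were ranked by their summed S1-segment markers, from cluster 7 (9836 CPM, the convoluted beginning of the tubule) to cluster 31 (348 CPM, S3-like, the straight end). G6pc, the last enzyme of glucose release, was at 924 CPM in cluster 7, at 641, 613, 413, 351 and 287 CPM in clusters 21, 29, 28, 22 and 33, and at 37.2 CPM in cluster 31, of which 0.47 CPM was left after free RNA was subtracted. Pck1 was at 1223 CPM in cluster 7, 1149 CPM in cluster 21 and 265 CPM in cluster 31, with the other clusters between 618 and 1040 CPM. Slc16a1, a monocarboxylate transporter that carries lactate, was steepest, with 128 CPM in cluster 7 and 2.19 CPM (4 UMIs) in cluster 31, where nothing was left after subtraction. Fbp1 showed no such order: cluster 7 held 802 CPM, cluster 31 held 690 CPM, and the highest value was 1294 CPM in cluster 21.

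Khk, Ldhd and Mpc2 ran the other way in the same clusters. Khk, the kinase that starts fructose breakdown, was at 449 CPM in cluster 7 and at 1164 and 1211 CPM in clusters 33 and 31. Ldhd, which oxidises D-lactate, was at 108 CPM in cluster 7 and 467 CPM in cluster 31, and Mpc2 at 673 and 2121 CPM. Mpc1 (557 and 1177 CPM) and Ldha (281 and 429 CPM) were also higher in cluster 31, but Ldhb (873 and 401 CPM) and Pdk2 (49.3 and 15.3 CPM) were higher in cluster 7. Pkm reached 32.3 CPM in cluster 31, or 15.6 CPM after free RNA was subtracted, and in clusters 7, 22, 28, 29 and 33 nothing was left after subtraction. Only Hk3, Pklr and Ldhd of the 35 members were among the 2000 variable genes used for clustering, but Pck1 and Fbp1 were among the leading genes of clusters 22 and 21, so these levels are a description and were not tested. Cluster 22 was shallow, with a median of 696.5 UMIs per cell and 28.3% free RNA. The plot of levels by PT-like cluster shows the opposed gradients.

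**Figure D2:**
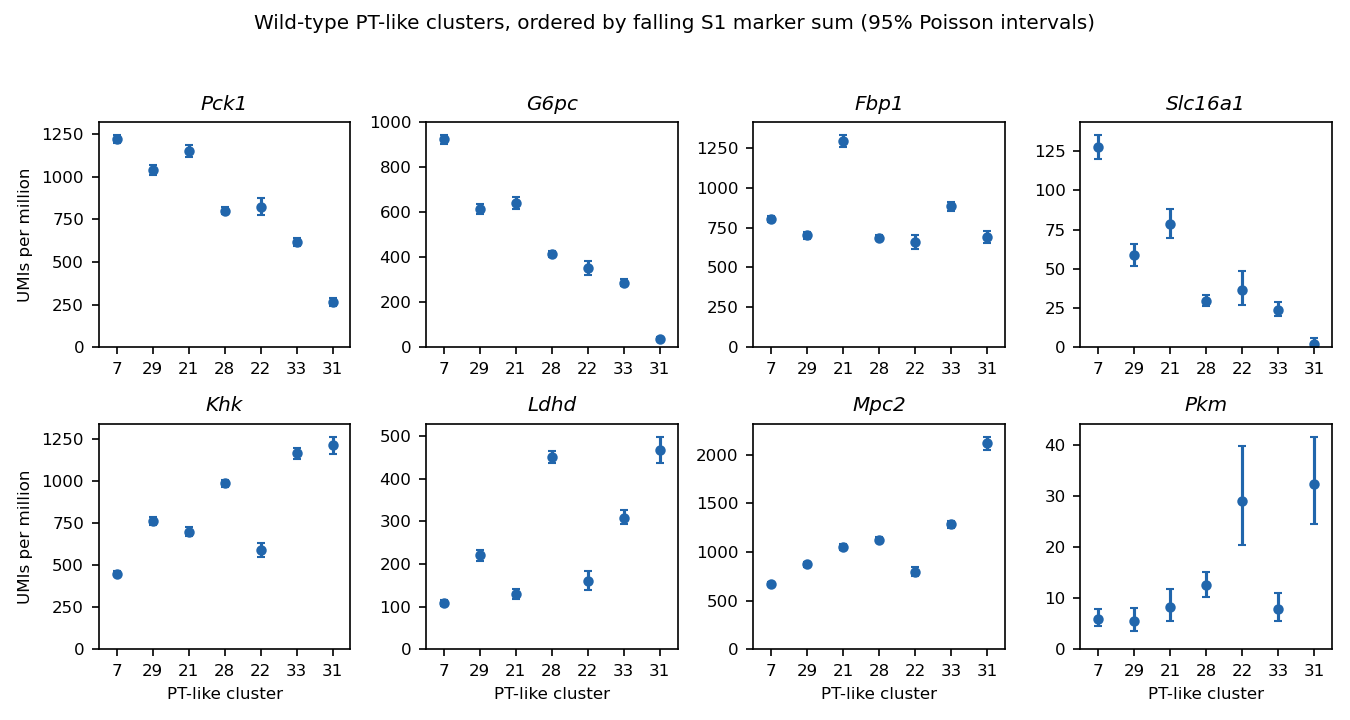
Levels (CPM, with 95% counting intervals) of 8 members in the 7 PT-like clusters of the wild-type library, ordered from the highest to the lowest summed S1-segment markers. Pck1, G6pc and Slc16a1 are lowest in cluster 31 (265, 37.2 and 2.19 CPM), where Khk, Ldhd and Mpc2 are highest (1211, 467 and 2121 CPM).

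This gradient bears on the comparison of the libraries, because their PT-like cells were not the same mixture. Cluster 7 held 70.7% of the PT I-PpoI PT-like cells (118 cells) and 14.0% of the wild-type ones (829 cells). The main PT results are therefore given for all PT-like cells and for cluster 7. Cluster 7 was also closer in depth, with medians of 12325 and 9337 UMIs per cell, where all PT-like cells had 10999 and 3141.5. In cluster 7 the S1 markers summed to 9302 and 9836 CPM, the S2 markers to 140 and 522 CPM and the S3 markers to 294 and 416 CPM, so some difference in segment remained.

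Among the gluconeogenic genes, the largest difference in PT-like cells was a lower Pck1, a gene on the plus strand at chr2:173153048-173159273 (mm10, GENCODE M21). Pck1 had 1096 UMIs in PT I-PpoI and 30949 in the wild type, or 538 and 929 CPM, a log2 ratio of -0.79 (-0.88 to -0.70). In cluster 7 it was at 454 and 1223 CPM, a log2 ratio of -1.43 (-1.54 to -1.32), and -1.45 with free RNA subtracted. Pck1 was the only member at least 2-fold lower in cluster 7, where 2.20% of all genes were. With 16 glycolysis, 6 gluconeogenesis and 9 other members at 20 or more UMIs there, 1 member is near that share. Over all PT-like cells no member was at least 2-fold lower, where 4.71% of all genes were. With each cell of cluster 7 thinned to 2000 UMIs, a Pck1 UMI was found in 48.7% (39.3% to 58.2%) of the 115 cells from PT I-PpoI and in 77.0% (74.0% to 79.9%) of the 818 from the wild type. Unthinned, these shares were 78.8% and 94.6%. In cluster 12, a group of lymphoid cells led by Gzma and Cd3g that should lack the gene, the thinned shares were 0 of 130 cells, which allows a share of up to 2.31% of cells with a UMI (the limit of 3 counts, where the Clopper-Pearson bound is 2.80%), and 12.6% of 310 cells. Their median depths were 4197 and 2371 UMIs.

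The other gluconeogenic genes stayed closer to the wild type in cluster 7. G6pc was at 866 and 924 CPM, a log2 ratio of -0.09, and its thinned shares of cells were 72.2% (63.0% to 80.1%) and 73.8% (70.7% to 76.8%). Over all PT-like cells G6pc was at 751 and 558 CPM, a log2 ratio of 0.43 (0.35 to 0.50), so its direction depended on which PT-like cells were compared. Fbp1 was at 787 and 810 CPM over all PT-like cells (log2 ratio -0.04, -0.12 to 0.03) and at 742 and 802 CPM in cluster 7 (-0.11). Pcx, which makes oxaloacetate from pyruvate, was at 138 and 175 CPM (-0.34, -0.52 to -0.17) and, in cluster 7, at 144 and 182 CPM (-0.34, -0.55 to -0.14). Slc37a4 was at 88.8 and 88.0 CPM (0.02, -0.21 to 0.23) and, in cluster 7, at 91.8 and 105 CPM (-0.19, -0.46 to 0.06). Pck2 rested on 6 and 107 UMIs (-0.02, -1.60 to 1.04), and Pck1 gave 99.5% and 99.7% of the UMIs of both carboxykinases. The list as a whole had a median log2 ratio of -0.03 (range -0.79 to 0.43, 2 members above 0 and 4 below), beside 0.33 over all genes. In cluster 7 it was -0.21 (range -1.43 to -0.09, all 6 below 0), beside 0.23 over all genes.

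The promoters of Pck1 and G6pc are shown because the ratios of these genes of the same pathway differed in cluster 7. Any link between the sequences and the ratios was not tested. Each is the stretch of 100 bases just before the gene's RefSeq start on the plus strand of GRCm38.p6, and the capitals mark any match, on either strand, to ACGTG (the core of the hypoxia response element) or TGACG (the beginning of the cyclic AMP response element TGACGTCA). The Pck1 stretch is chr2:173152973-173153072 and the G6pc stretch, with no match, is chr11:101367616-101367715.
Pck1: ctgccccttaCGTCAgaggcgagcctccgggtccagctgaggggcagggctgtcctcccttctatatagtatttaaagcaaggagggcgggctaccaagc
G6pc: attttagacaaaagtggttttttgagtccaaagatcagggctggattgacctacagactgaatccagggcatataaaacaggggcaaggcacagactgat
The Pck1 match is to TGACG on the reverse strand and begins 90 bases before the start. A window of 250 bases before the start holds TGACG in 17.8% of all 32851 RefSeq windows and in 11 of the 56 windows of the members. Such a match is a description, and whether it is bound or plays a part here was not tested.

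The median ratio of the glycolytic genes in PT-like cells lay slightly above that of all genes, with members on both sides of the latter. Hk1 and Pkm, read as background below, are among the genes counted. Of the 20 genes, 17 had at least 10 UMIs. Their median log2 ratio was 0.42 (range 0.07 to 1.65), beside a median of 0.33 over all genes of these cells. The lowest, Pfkfb4, rests on 5 and 85 UMIs, or 2.45 and 2.55 CPM (-1.72 to 1.22), and is above 0 only through the 0.5 UMIs added to each count; the other 16 were above 0 without it. Scaling by TMM, which centres the bulk of genes, moved all ratios by -0.36 and the list's median to 0.06. Hk2, Hk3 and Eno2 were at 3 or fewer UMIs in each library and have no ratio. In cluster 7 the median was 0.44, with 15 of 16 genes above 0, beside 0.23 over all genes.

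Over all PT-like cells, only Tpi1 of the 7 abundant reversible enzymes lay above the all-gene median of 0.33, and in cluster 7 all but Gpi1 (0.22) lay above its 0.23. Gapdh was at 1375 and 1152 CPM (log2 ratio 0.26) and, in cluster 7, at 1308 and 941 CPM (0.47). Tpi1, which interconverts the triose phosphates, was at 504 and 376 CPM (0.42) and at 0.53 in cluster 7. Aldoa, the muscle-type aldolase, was at 419 and 373 CPM (0.17) and at 0.48 in cluster 7. Aldoa falls to -0.03 with free RNA subtracted, and with TMM scaling Gapdh, Aldoa, Pgk1, Eno1 and Gpi1 lie between -0.19 and -0.06, so the directions of these 5 genes over all PT-like cells depend on the scaling. Pgam1, the phosphoglycerate mutase, at 269 and 250 CPM (0.11, -0.02 to 0.23), and Ldhb, at 1134 and 1059 CPM (0.10), were nearest to 0 over all PT-like cells among the members outside gluconeogenesis with at least 100 UMIs. In cluster 7 they were at 271 and 200 CPM (0.44, 0.28 to 0.59) and at 1080 and 873 CPM (0.31, 0.23 to 0.38).

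Over all 32 members with at least 20 UMIs, 7 were at least 2-fold higher in PT I-PpoI, where 13.7% of all genes were: Hk1, Pfkp, Pkm, Pfkfb2, Pfkfb3, Slc16a1 and Pdk1. With TMM scaling the split of 7 higher and 0 lower became 2 higher and 3 lower. In cluster 7, 4 members were at least 2-fold higher, where 5.57% of all genes were: Hk1, Pfkp, Pkm and Pdk1. Pkm was at 28.9 and 10.4 CPM (1.48, 1.05 to 1.88), but free RNA alone would give 32.8 and 14.6 CPM. Hk1 was at 6.38 and 3.03 CPM (1.12, 0.11 to 1.91), where free RNA would give 6.62 and 4.48 CPM. In cluster 7 Pkm was at 25.6 and 5.95 CPM (free level 36.3 and 9.86 CPM) and Hk1 at 5.90 and 1.40 CPM (free level 7.33 and 3.02 CPM). Both were therefore at or below the background of each library and are not read as expression in PT-like cells. TAL, DCT, PC and IC markers set that background, so genes high in those classes come near it by design. Whether the RNA was free or came with cells or fragments of those classes was not tested.

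Pfkp, on the minus strand at chr13:6579768-6648777 (mm10, GENCODE M21), was above that background. It had 38 and 200 UMIs, or 18.6 and 6.01 CPM, a log2 ratio of 1.65 (1.09 to 2.14), where free RNA would give 4.61 and 2.60 CPM. After subtraction the levels were 14.9 and 3.96 CPM and the log2 ratio was 1.93. In cluster 7 Pfkp was at 19.0 and 6.88 CPM (1.48, 0.77 to 2.13). In PT-like cells Pfkp thus gave 40.0% (30.1% to 50.6%) of the phosphofructokinase UMIs of PT I-PpoI and 21.0% (18.4% to 23.7%) of those of the wild type. In TAL-like cells those shares were 47.4% and 51.8%. Within the wild type, Pfkp was highest in the S3-like cluster 31, at 24.6 CPM, and between 2.02 and 7.82 CPM in the other PT-like clusters. Pfkfb2 was at 5.40 and 2.52 CPM from 11 and 84 UMIs (1.15), but at 5.90 and 4.55 CPM in cluster 7. Pfkfb3 rested on 4 and 32 UMIs.

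Among the genes of lactate, pyruvate and fructose, the ratios over all PT-like cells were mostly smaller in cluster 7. Slc16a1 was at 143 and 62.4 CPM over all PT-like cells, a log2 ratio of 1.20 (1.02 to 1.38), and at 174 and 128 CPM in cluster 7 (0.45). Khk was at 448 and 804 CPM (-0.84), and at 351 and 449 CPM in cluster 7 (-0.35). Mpc1 was at 623 and 983 CPM (-0.66), Mpc2 at 706 and 1029 CPM (-0.54) and Ldhd at 177 and 265 CPM (-0.58), and in cluster 7 these 3 ratios were -0.06, -0.03 and 0.06. Each of these genes is also one that varied along the wild-type segments, where Slc16a1 was high in cluster 7 and the others low. Pdk1, at 7.85 and 3.72 CPM (1.11), was at 9.18 and 3.62 CPM in cluster 7 (1.37), and free RNA would give 1.98 and 1.26 CPM over all PT-like cells. Pdk2, a further pyruvate dehydrogenase kinase, was at 73.1 and 39.4 CPM (0.90) and at 0.62 in cluster 7. Ldha was at 320 and 380 CPM (-0.25) and at 0.05 in cluster 7. The list's median was -0.25 (range -0.84 to 1.20) over all PT-like cells and 0.06 in cluster 7.

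The PT-like cells of the libraries also differed in genes of the early response to stress. Jun was at 499 and 94.0 CPM over all PT-like cells and at 647 and 252 CPM in cluster 7, and Fos at 58.4 and 28.8 CPM in cluster 7. The median share of mitochondrial UMIs was 21.3% and 20.0% over all PT-like cells, and 19.2% and 28.8% in cluster 7. The part of these differences in the results above was not tested. The plot of ratios in PT-like cells sets the members beside the median of all genes.

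**Figure D3:**
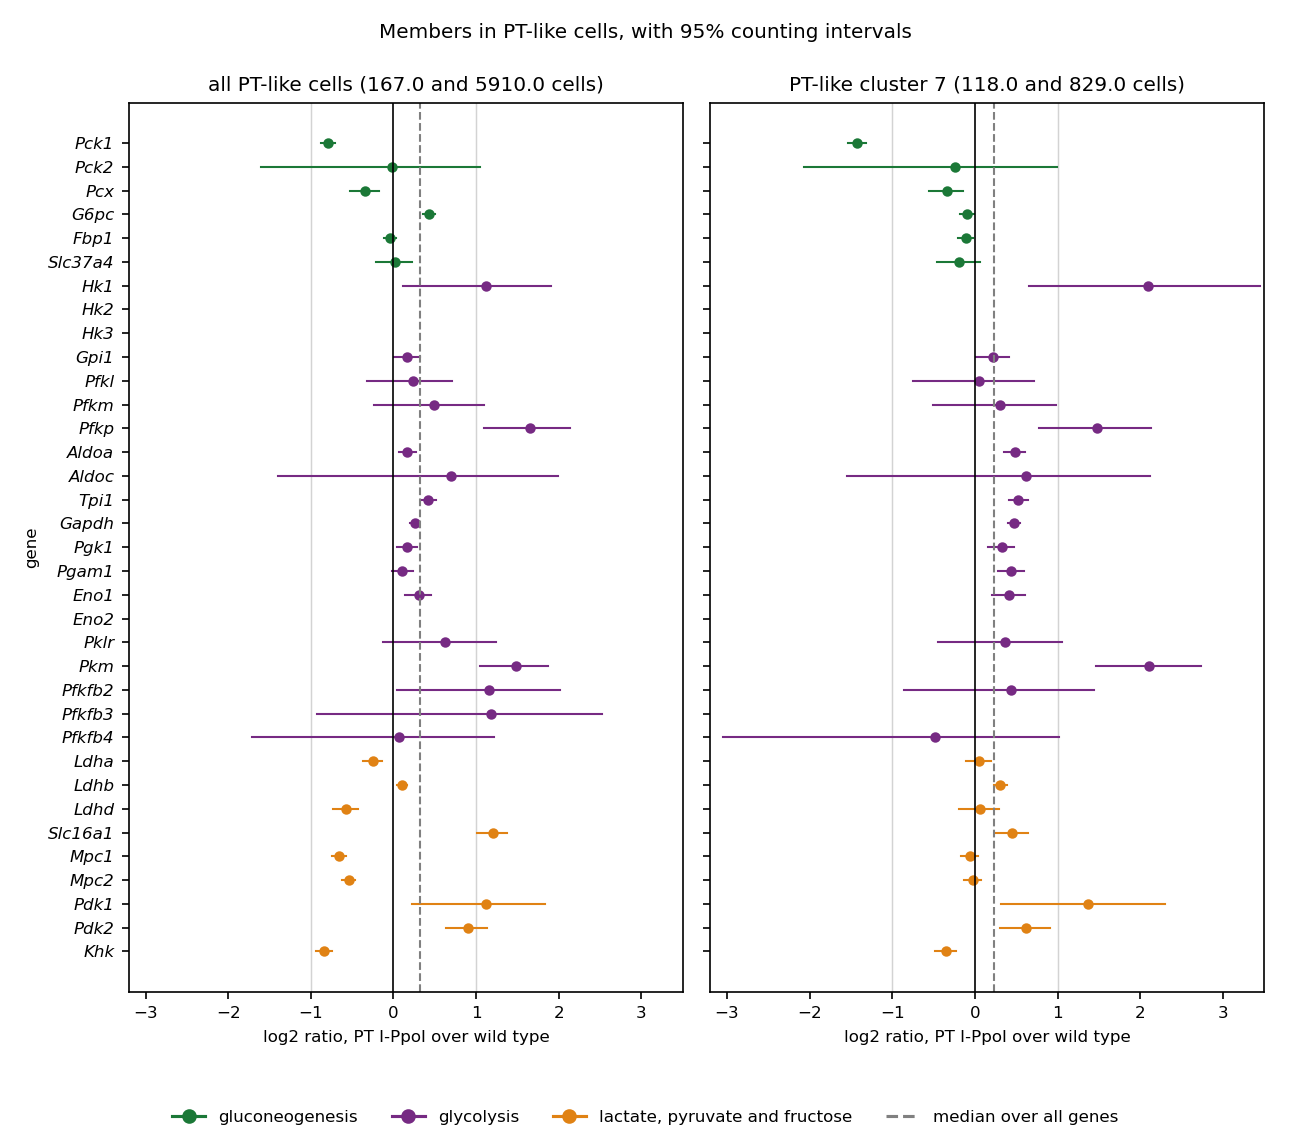
Log2 ratio of PT I-PpoI over wild type for each member in all PT-like cells and in cluster 7, with 95% counting intervals; the dashed lines mark the median over all genes (0.33 and 0.23), and intervals that leave the axis are clipped. Pck1 lies at -0.79 and -1.43, and Pfkp at 1.65 and 1.48.

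Outside the PT-like cells, the glycolytic genes were, on balance, slightly higher in the PT I-PpoI library. The median log2 ratio of the list was above 0 in all 10 classes compared. It was 0.58 in macrophage-like cells (0.13 over all genes) and 0.52 in DCT-like cells (-0.02), 0.31 in cDC-like cells (0.16), 0.28 in mural-like cells (0.14) and 0.28 in thin limb-like cells (0.02). It was 0.26 in endothelium-like cells (0.21), 0.23 in parietal-like cells (0.09), 0.20 in IC-like cells (-0.10), 0.19 in PC-like cells (0.04) and 0.10 in TAL-like cells (0.08). With free RNA subtracted, 8 of the 10 medians were above 0, and with a profile of free RNA from other droplets 6 were. Pkm was higher in 10 of 10 classes (0.20 to 0.91) and in 8 with free RNA subtracted. Gpi1, the isomerase after hexokinase, was likewise higher in 10 of 10 (0.07 to 0.85) and in 8 after subtraction. Gapdh, Tpi1 and Eno1 were each higher in 9 of 10. Mpc2 went the other way and was lower in 10 of 10 (-0.70 to -0.02), and in 9 after subtraction. Khk was also lower in 10 of 10 (-2.67 to -1.03), but after subtraction in 4 and higher in 6. Ldhd was lower in 9 of 10, and in 4 after subtraction, and Slc16a1 in the 5 classes where it had at least 20 UMIs, and in 4 after subtraction.

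Among members with at least 30 UMIs in the library that held more, the largest higher ratio in a named class outside the PT was in DCT-like cells. Ldha, the subunit that favours lactate formation, lies on the plus strand at chr7:46841475-46855627 (mm10, GENCODE M21). It had 3182 and 216 UMIs there, or 366 and 141 CPM, a log2 ratio of 1.38 (1.18 to 1.59) and of 1.51 with free RNA subtracted. It was the only member at least 2-fold higher in these cells, where 2.78% of all genes were. With 16 glycolysis, 6 gluconeogenesis and 8 other members at 20 or more UMIs, 1 member is near that share. It was higher in each of the 2 DCT-like clusters, at 365 and 132 CPM in cluster 11 and at 394 and 167 CPM in cluster 27. Of the Ldha and Ldhb UMIs of DCT-like cells, Ldhb therefore gave 87.1% in the PT I-PpoI library and 95.4% in the wild type. In TAL-like cells Ldha was at 97.1 and 118 CPM (-0.28) and in PC-like cells at 418 and 417 CPM (0.00). Pfkl, at 83.9 and 43.0 CPM (0.96), Pfkp, at 154 and 84.6 CPM (0.85), and Pkm, at 1174 and 695 CPM (0.76), were also higher in DCT-like cells. These cells differed between the libraries in depth (medians of 15450 and 2805.5 UMIs) and in stress genes, with Jun at 346 and 954 CPM and Fos at 177 and 706 CPM. The part of these differences was not tested.

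In the immune-like and vessel-like classes, members with at least 30 UMIs in the library that held more were ranked by ratio. The highest was Pfkl in macrophage-like and mural-like cells, Pfkp in cDC-like cells and Pkm in endothelium-like cells. In macrophage-like cells Pfkl, the liver-type phosphofructokinase, was at 27.7 and 12.7 CPM (1.11, 0.37 to 1.90). It was the only member at least 2-fold higher, where 4.44% of all genes were. With 15 glycolysis, 6 gluconeogenesis and 7 other members at 20 or more UMIs, 1 member is near that share. Pkm was at 199 and 106 CPM there (0.91), and Hk1 at 23.4 and 12.7 CPM (0.87). In cDC-like cells Pfkp was at 82.7 and 37.8 CPM (1.12, 0.59 to 1.69), again the only member at least 2-fold higher, where 6.14% of all genes were. With 15 glycolysis, 4 gluconeogenesis and 7 other members at 20 or more UMIs, 1 member is no more than that share. In endothelium-like cells Pkm was at 276 and 171 CPM (0.69), and no member was at least 2-fold higher, where 6.97% of all genes were. In mural-like cells Pfkl was at 65.3 and 30.8 CPM (1.07, and 0.55 with free RNA subtracted), where 5.53% of all genes were at least 2-fold higher. Free RNA was 22.0% and 56.2% of the mural-like UMIs, and the ratio of Pkm there, 0.86, was -0.13 after subtraction.

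The remaining named classes held smaller differences on the higher side. The unnamed cluster 8 (315 and 374 cells) is not among them. There Pck2 was at 23.4 and 10.5 CPM (1.12, 0.41 to 1.99). Aldoc was also at least 2-fold higher, where 3.63% of all genes were. Before free RNA was subtracted, 4 gluconeogenesis genes and 3 of lactate, pyruvate and fructose were at least 2-fold lower in cluster 8, where 2.56% of all genes were. In the unnamed cluster 12 the glycolysis median was 0.62, beside 0.11 over all genes, with 11 genes above 0 and 2 below. Gapdh was at 0.93 and Pkm at 0.91 in cluster 12. In thin limb-like cells Hk1 was at 205 and 123 CPM (0.74, 0.41 to 1.09). In PC-like cells Pgk1 was at 447 and 341 CPM (0.39) and Gapdh at 1326 and 1014 CPM (0.39), and in IC-like cells Tpi1 was at 486 and 387 CPM (0.33). In TAL-like cells Aldoc was at 50.6 and 36.0 CPM (0.49), and Pck2 at 8.02 and 4.47 CPM (0.81, 0.15 to 1.62). In parietal-like cells Pfkl was at 55.6 and 33.0 CPM (0.73). The heat map of ratios by class shows how these differences are spread.

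**Figure D4:**
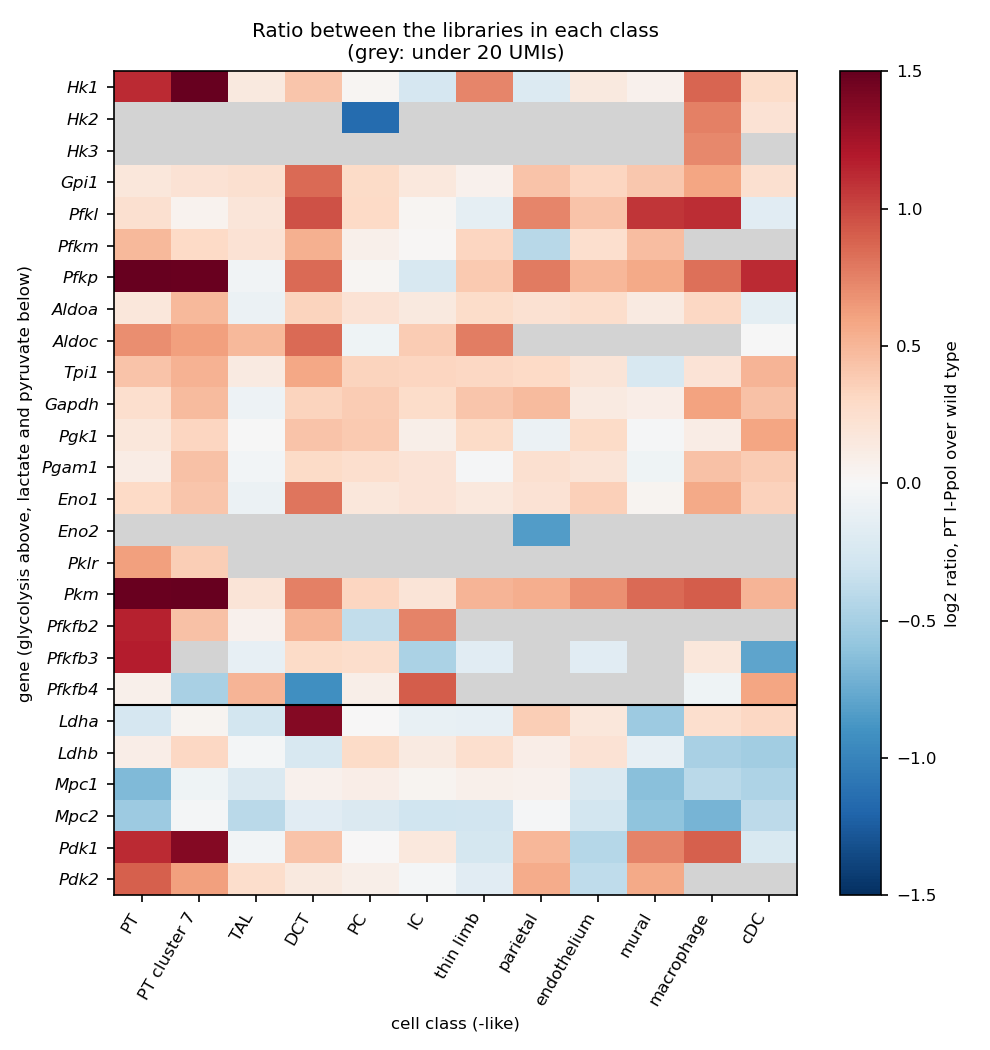
Log2 ratio of PT I-PpoI over wild type (colour, saturating at 1.5 either way) for the glycolysis genes and 6 genes of lactate and pyruvate in each cell class; grey marks fewer than 20 UMIs over both libraries. Ldha in DCT-like cells (1.38) stands out from Ldha in the TAL-like (-0.28) and PC-like (0.00) classes, and the Pkm row is above 0 in every class.

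Pck1, G6pc and Fbp1 were lower in the PT I-PpoI library in 10 of 10 classes outside the PT, and these signals were mostly near the estimated free level. That level was set from the PT markers in every group but the parietal-like one. Over 11 groups of cells (9 of the classes, without the mural-like one because of its free RNA share of 22.0% and 56.2%, and the unnamed clusters 8 and 12), Pck1 had a median level of 1.26 CPM (0 to 46.3) in PT I-PpoI and 63.3 CPM (41.7 to 171) in the wild type. Measured over free level, the median was 0.90 and 1.20. G6pc had medians of 1.42 and 37.2 CPM, or 1.02 and 1.10 times the free level, and Fbp1 of 1.77 and 46.5 CPM, or 1.47 and 1.20 times. In DCT-like cells, for instance, Pck1 had 11 and 80 UMIs, or 1.27 and 52.1 CPM. Because PT markers set the free level, the ratios show that these genes tracked the PT markers. Whether the RNA was free or came with PT cells or fragments was not tested. These levels are read as background and not as expression or as a change. The libraries also differed in their PT-like share, 3.26% and 49.4%, and its part in the free level was not tested.

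The clearest exceptions lay in parietal-like, TAL-like and mural-like cells. In parietal-like cells Pck1 was at 46.3 and 171 CPM, where free RNA would give 2.32 and 29.8 CPM, and G6pc, Fbp1 and Khk were at 35.3 and 89.7, at 101 and 172 and at 167 and 342 CPM. These cells also held all 14 PT markers, with a sum of 1846 and 3099 CPM where free RNA would give 63.1 and 558 CPM. The free share of parietal-like cells was set from TAL markers, and that of the other groups outside the PT from PT markers. The excess in parietal-like cells is therefore not on the same footing as the values of the other groups. PT-like cells held 15551 and 16703 CPM of the same markers. The part of PT-cell material in these values was not tested. In TAL-like cells of PT I-PpoI the PT markers summed to 65.3 CPM, beside a free level of 58.7 CPM. Those markers set that level, so the match was built in and cannot show whether PT-cell material was present. G6pc had 252 UMIs in these cells, or 13.5 CPM, where free RNA would give 2.49 CPM. Most of it was in cluster 2, at 38.4 CPM, against 3.75 CPM in cluster 1. After thinning to 2000 UMIs, 1.81% (1.15% to 2.71%) of 1269 TAL-like cells of PT I-PpoI held a G6pc UMI, and 12.0% did unthinned. Fbp1 was at 5.72 CPM in the same cells, where free RNA would give 1.90 CPM. In the mural-like cells of the PT I-PpoI library Pck1 was at 20.8 CPM (13.1 to 31.5), Fbp1 at 19.9 CPM (12.3 to 30.4) and G6pc at 14.2 CPM (7.95 to 23.4), where free RNA would give 6.26, 5.52 and 7.23 CPM. In those of the wild type Fbp1 was at 194 CPM, where free RNA would give 145 CPM. The libraries filled the TAL-like clusters differently: 728 and 180 cells lay in cluster 1, 334 and 80 in cluster 2 and 361 and 681 in cluster 17. The plot of measured against free levels shows where the 3 genes exceed the free level.

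**Figure D5:**
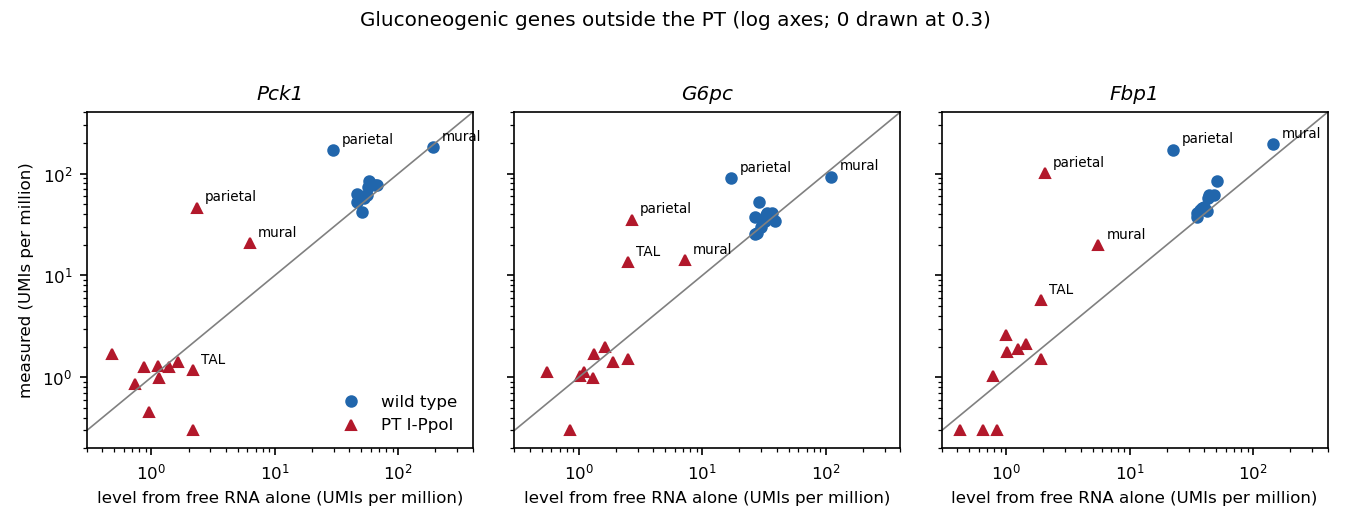
Measured level against the level that free RNA alone would give (CPM, log axes, 0 drawn at 0.3) for Pck1, G6pc and Fbp1 in each group of cells outside the PT-like ones, by library, with the line of equality. The free level rests on PT markers, except for the parietal-like points, where it rests on TAL markers. Wild-type points sit at higher free levels and mostly close to the line. The parietal-like points lie above the line, as does G6pc in TAL-like cells of PT I-PpoI (13.5 CPM measured, 2.49 CPM free).

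Ldha, Pkm and Pgk1 promoters are shown because these glycolytic genes are textbook targets of hypoxia-inducible factors and of Myc-type factors, which bind ACGTG and the E-box CACGTG. Each stretch is 100 bases of the plus strand of GRCm38.p6 from RefSeq, with the same motifs in capitals. They are Ldha at chr7:46845704-46845803, Pkm at chr9:59657127-59657226, both ending just before a RefSeq start, and Pgk1 at chrX:106186930-106187029, from 170 to 71 bases before its start.
Ldha: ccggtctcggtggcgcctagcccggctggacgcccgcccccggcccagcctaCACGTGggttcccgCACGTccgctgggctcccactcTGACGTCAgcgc
Pkm: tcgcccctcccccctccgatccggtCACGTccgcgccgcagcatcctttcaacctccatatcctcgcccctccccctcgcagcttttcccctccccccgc
Pgk1: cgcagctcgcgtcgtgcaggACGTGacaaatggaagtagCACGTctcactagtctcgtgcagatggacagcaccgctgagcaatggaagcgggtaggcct
Among the members only Ldha, which also holds the E-box, has the full cyclic AMP response element, found in 1.55% of all windows. The hypoxia core was found in 19 of the 56 windows of the members (33.9%; some windows of a gene overlap) and in 16.6% of all windows. The E-box, which contains that core, was found in 9 of the 56 and in 6.02% of all windows. Hk1, Pfkp, Gapdh and Tpi1 had no match to any of these motifs in their windows, which says only that the letters are not there.

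A further list of 50 pathway genes outside the members was read by counts. All 50 were found, and 44 had at least 20 UMIs in PT-like cells, where 4 were at least 2-fold higher and 3 at least 2-fold lower in PT I-PpoI, where 13.7% and 4.71% of all genes were, with a median log2 ratio of 0.21 beside 0.33 over all genes. In cluster 7, 2 of 40 were higher and 1 lower, where 5.57% and 2.20% of all genes were, with a median of 0.19 beside 0.23. Slc16a7 and Pgam2 were higher in both. Slc16a7, a monocarboxylate transporter, was at 20.1 and 6.25 CPM over all PT-like cells (1.70, 1.17 to 2.18) and at 20.3 and 2.22 CPM in cluster 7, from 31 and 19 UMIs (3.18, 2.33 to 4.10). Free RNA alone would give 17.4 and 5.32 CPM, and 19.3 and 3.59 CPM in cluster 7. Pgam2, the muscle phosphoglycerate mutase, was at 8.83 and 3.81 CPM (1.24) and at 1.08 in cluster 7, where free RNA would give 14.8 and 5.82 CPM over all PT-like cells. Both genes were thus near or below the free level and are read as background. That level was set from TAL, DCT, PC and IC markers, so free RNA and material of those cells cannot be told apart here. The monocarboxylate transporter Slc16a4 was lower in both (-1.17 and -1.18), at 24.5 and 55.7 CPM over all PT-like cells, where free RNA would give 0.23 and 2.18 CPM. The glucose transporters Slc2a2 (0.83 over all PT-like cells) and Slc5a2 (0.85), both S1-segment genes, were at 0.20 and -0.20 in cluster 7. Among the listed regulators of Pck1, Foxo1 was at 21.6 and 22.6 CPM (-0.05) and Hnf4a at 197 and 206 CPM (-0.06). Creb1 was at 34.3 and 23.0 CPM (0.59) and Ppargc1a at 95.7 and 50.2 CPM (0.93). In cluster 7 Foxo1, Hnf4a, Creb1 and Ppargc1a were at -0.17, 0.17, 0.16 and 0.25.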

How the data were processed

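The authors deposited 1 matrix of UMI counts per library with every barcode and no cell annotation; per the file headers it was written by Cell Ranger 4, while the submitters' processing notes name Cell Ranger 3.1, Seurat 3 and mm10. The files give 93257620 UMIs for PT I-PpoI and 107977310 for wild type. From these counts, barcodes of at least 500 UMIs were called as cells by depth or, against the profile of barcodes ranked 45001 to 90000, by 10000 simulations at an adjusted level of 0.01. Cells under 200 genes or over 50% mitochondrial UMIs were dropped, as were 80 and 298 doublets (scrublet within scanpy 1.11.5). Both libraries were clustered together on 2000 variable genes, 30 components and 15 neighbours (Leiden, resolution 1), and classes were named from marker lists. Classes of at least 50 cells in each library were compared: 10 beside the PT-like one.

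Counts were summed per class, and log2 ratios add 0.5 count; intervals are exact conditional binomial ones. No ratio was taken where both libraries held 3 or fewer UMIs. Medians use members of at least 10 UMIs over both libraries, and counts of 2-fold differences those of at least 20. The free RNA share is the median, over markers of other classes, of observed over free level, with the profile of barcodes of at most 100 UMIs. For PT-like cells these were the TAL, DCT, PC and IC markers. For parietal-like cells they were the TAL markers, and for every other group the PT markers. The scripts were tested on simulated data (python 3.11.15, numpy 2.4.6, scipy 1.17.1, pandas 2.3.3, edgeR 4.0.16 for TMM, matplotlib 3.10.9). Named genes are all gluconeogenesis members in PT-like cells, other members with at least 30 UMIs that differ 2-fold there, the 2 nearest to 0, up to 3 members furthest from 0 either way in each other class, and each member's highest classes; Slc16a7 and the other genes outside the members were chosen after their values were seen. Members and lists were chosen with earlier results of these data known. Near copies of members were scarce (Eno1b 229 UMIs, Aldoart1 8, Aldoart2 2), and reads they share with Eno1 or Aldoa cannot be told apart. Coordinates are those of GENCODE M21, promoters those of RefSeq, and no genome sequence was used beyond them.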

Additional observations from a re-analysis of the deposited data

How the results depend on the processing

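With 1 library per group, depth and the small number of PT I-PpoI cells of the PT-like class limit the values, and no alternative replaces a replicate. No paired analysis was possible because each group holds 1 library. The direction of Pck1, Slc16a1, Khk and Pfkp in PT-like cells held under every alternative run: Pck1 ranged from -1.43 (cluster 7 alone) to -0.65 (mitochondrial limit of 30%). The glycolysis median in PT-like cells moved from 0.42 to 0.11 with a mean over cells, 0.0627 with TMM scaling and 0.0057 with free RNA subtracted by a profile from barcodes of higher rank, an alternative chosen after seeing the data. The count of members at least 2-fold higher moved from 7 to 3, 2 and 2 under these settings and to 4 in cluster 7 alone. The count at least 2-fold lower moved from 0 to 3 with TMM scaling, 1 in cluster 7 alone and 2 with the rank profile. The gluconeogenesis median of PT-like over TAL-like cells in the wild type moved from 3.60 to 5.15 with free RNA subtracted and 5.33 with the rank profile, which also left 6 of 10 classes with a glycolysis median above 0. Among the ratios in PT-like cells whose interval left out 0, signs changed as follows. With free RNA subtracted, Aldoa was at -0.0311 and Ldhb at -0.0596. With a mean over cells, Aldoa was at -0.0496 and Ldhb at -0.13. With TMM scaling, Gpi1, Aldoa and Pgk1 were each at -0.19, Gapdh at -0.10, Eno1 at -0.0561 and Ldhb at -0.26. In cluster 7 alone, G6pc was at -0.0928, Ldha at 0.0468 and Ldhd at 0.0576. With the rank profile, Gpi1 was at -0.10, Aldoa at -0.13, Pgk1 at -0.0910 and Ldhb at -0.20. The cause was not tested. A minimum of 1000 UMIs and Leiden resolution 2 left all 32 ratios within their intervals.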
